A study of Homo sapiens with 4 samples.

Results

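hsa-miR-205, hsa-miR-203 and hsa-miR-31 are miRNAs of basal and stratified epithelium, and their values were compared in exosomes and cells of a metastatic and a non-transformed human breast line. They were taken as the rows of the deposited files whose name equals 1 of these 3, without star names, and all 3 were found among the 1100 mature miRNA names of each file. The 4 groups held 1 small RNA library each: exosomes of MDA-MB-231, MDA-MB-231 cells, exosomes of MCF-10A, and a library labelled MCF-10A cell, called the labelled MCF-10A cell library below. The MDA-MB-231 line comes from a triple-negative breast cancer and has mesenchymal features, while MCF-10A comes from non-malignant mammary epithelium and has basal features. The labels name no genetic change or treatment beside the media. MDA-MB-231 was cultured in DMEM with 10% FBS. The MCF-10A medium was DMEM/F12 with 5% horse serum, insulin at 10 µg/ml, EGF at 20 ng/ml, cholera toxin at 0.1 µg/ml and hydrocortisone at 0.5 µg/ml. How the exosomes were purified, and whether serum vesicles were removed from the medium, is not given in the sources used here. Because every group was a single library (1 each), differences could not be checked against replicates and carry no p-value.

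miRNAs are short RNAs that pair with messenger RNAs, mainly through bases 2 to 8 (the seed), and lower their translation and stability. miR-205 is a marker of basal cells in mammary gland, prostate and skin and represses ZEB1 and ZEB2, transcription factors that drive the mesenchymal state. miR-203 accumulates as keratinocytes leave the basal layer and represses the basal-cell factor p63, while miR-31 is abundant in keratinocytes and has been reported to restrain metastasis of breast cancer cells. Exosomes are vesicles of endosomal origin that leave the cell with part of its RNA.

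The mature sequences below are what each name counts, with the seed in capitals. Present RefSeq names (build GRCh38.p14) are miR-205-5p, miR-203a-3p and miR-31-5p, and the star arm of miR-205 is miR-205-3p.
miR-205: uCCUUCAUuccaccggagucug
miR-205*: gAUUUCAGuggagugaaguuc
miR-203: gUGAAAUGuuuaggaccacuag
miR-31: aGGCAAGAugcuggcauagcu
The 3 seeds are different, and none of the other mature human miRNAs in the RefSeq table of 2370 holds any of them at bases 2 to 8. The seed matches in a target, read on the messenger RNA as DNA letters, are ATGAAGG for miR-205, CATTTCA for miR-203 and TCTTGCC for miR-31.

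The precursor hairpins are shown because the ratio of their arms is described further below. Capitals mark the arms that have a mature entry in the RefSeq table, which for MIR31 is the miR-31 arm alone.
MIR205: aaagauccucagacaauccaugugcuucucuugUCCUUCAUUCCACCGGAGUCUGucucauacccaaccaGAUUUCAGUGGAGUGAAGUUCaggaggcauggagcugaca
MIR203A: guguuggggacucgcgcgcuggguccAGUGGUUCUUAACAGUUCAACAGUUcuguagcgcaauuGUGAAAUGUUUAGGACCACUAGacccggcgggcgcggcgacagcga
MIR31: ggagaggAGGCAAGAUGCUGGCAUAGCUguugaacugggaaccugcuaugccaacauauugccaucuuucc
Positions are from GENCODE release 29 on GRCh38, matched by gene name, as the deposited files hold none. MIR205 lies on the plus strand at chr1:209432133-209432242, within an exon of the noncoding gene MIR205HG. MIR31 lies on the minus strand at chr9:21512115-21512185, within an intron of the noncoding gene MIR31HG. MIR203A lies on the plus strand at chr14:104117405-104117514 and overlaps only MIR203B, the miRNA gene on the opposite strand. Whether the authors' counting used strand is not given in the sources used here.

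miR-205, miR-203 and miR-31 were all higher in both MCF-10A libraries than in both MDA-MB-231 libraries. The starts of the host genes of miR-205 and miR-31 are shown, and miR-203 is left out because MIR203A overlaps only MIR203B. Each window runs from 250 bases before to 50 bases after the RefSeq start, on the strand of the gene. Capitals mark the E-box CACCTG or its complement CAGGTG, the letters that ZEB and SNAI factors are known to bind.
MIR205HG (chr1:209428570-209428869): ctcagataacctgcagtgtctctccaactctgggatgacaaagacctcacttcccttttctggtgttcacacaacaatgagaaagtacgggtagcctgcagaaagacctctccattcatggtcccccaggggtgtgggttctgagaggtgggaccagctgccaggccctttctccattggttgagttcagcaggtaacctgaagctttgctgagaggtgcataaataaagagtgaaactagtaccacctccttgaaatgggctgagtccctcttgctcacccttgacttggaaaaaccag
MIR31HG (chr9:21559749-21560048): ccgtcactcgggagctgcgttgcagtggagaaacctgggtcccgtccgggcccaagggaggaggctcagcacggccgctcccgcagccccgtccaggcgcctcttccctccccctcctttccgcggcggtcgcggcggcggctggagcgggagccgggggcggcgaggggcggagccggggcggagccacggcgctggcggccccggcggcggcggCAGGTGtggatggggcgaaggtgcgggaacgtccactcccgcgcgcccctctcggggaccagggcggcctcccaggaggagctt
The MIR31HG window held 1 such E-box and the MIR205HG window 0, where 20.6% of 35116 RefSeq promoters of the same length, searched on both strands, held at least 1. The windows also differed in CpG dinucleotides, with 39 at MIR31HG and 1 at MIR205HG, beside a median of 14 over all promoters. These matches describe the letters only, and nothing that binds or methylates them was measured here.

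The deposited values are log2 of reads per 10000000 miRNA reads plus 1, and whole reads were recovered from them. The exosome libraries held 1532863 (MDA-MB-231) and 1254544 (MCF-10A) miRNA reads, fewer than the 7344500 of MDA-MB-231 cells and the 10937073 of the labelled MCF-10A cell library. The labelled MCF-10A cell library stood apart by miRNAs of other tissues. Lists of muscle, stromal, endothelial, blood, liver and neural miRNAs and of the 14q32 and 19q13 clusters, 159 names in all, held 50.9% of its reads. Their share was 3.18% in exosomes and 0.436% in cells of MDA-MB-231, and 0.155% in MCF-10A exosomes. Of the 159 names, 149 had 10 or more reads in the labelled MCF-10A cell library, beside 14 to 44 in the others, and all 7 muscle names were above 0 in it. Comparisons of the lines that rest on this library are also given with MCF-10A exosomes in its place, and the part these miRNAs play in the levels of miR-205, miR-203 and miR-31 was not tested. Intervals in parentheses are at 95% and cover counting error only, because PCR copies of a molecule cannot be told from separate molecules here. A library with 0 reads is set at 3 reads for a fold given as at least, with the reads of the other library taken as exact. The exact 95% intervals reach lower than these folds, for example to 42.1 in place of 52.6 for miR-31 between the exosomes.

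miR-205 was plentiful in both MCF-10A libraries and nearly missing from both MDA-MB-231 libraries. In MDA-MB-231 its deposited value was 3.81 in exosomes (2 reads) and 0 in cells (0 reads), whereas in MCF-10A it was 13.56 in exosomes (1515 reads) and 12.58 in the labelled cell library (6696 reads). In MCF-10A exosomes it took 0.121% of the miRNA reads (Wilson interval 0.115 to 0.127) and was the 46th of 436 names above 0. In MDA-MB-231 exosomes it was the 411th of 508, a place held by 2 reads, and in MDA-MB-231 cells 0 reads allow up to 4.08 per 10000000.

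miR-203 was detected in all 4 libraries. In MDA-MB-231 its value was 7.36 in exosomes (25 reads) and 3.2 in cells (6 reads), whereas in MCF-10A it was 11.39 in exosomes (337 reads) and 12 in the labelled cell library (4479 reads). In MDA-MB-231 it ranked 238th of 508 names in exosomes and 418th of 566 in cells, and in MCF-10A 82nd of 436 in exosomes and 123rd of 794 in the labelled cell library. It was the most abundant of the 3 miRNAs in both MDA-MB-231 libraries.

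miR-31 had 0 reads in both MDA-MB-231 libraries. In MCF-10A it stood at 10.01 in exosomes (129 reads) and at 7.46 in the labelled cell library (191 reads), where it was the 121st of 436 and the 383rd of 794 names. The 0 reads allow up to 19.6 per 10000000 in the exosomes and 4.08 in the cells of MDA-MB-231, under its linear MCF-10A levels of 1030 (exosomes) and 175 (labelled cell library). Together the 3 miRNAs made up 0.00176% of the exosome reads (27 reads) and 8.17e-05% of the cell reads (6 reads) of MDA-MB-231. In MCF-10A they made up 0.158% of the exosome reads (1981 reads) and 0.104% of the labelled cell library (11366 reads).

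**Figure D1:**
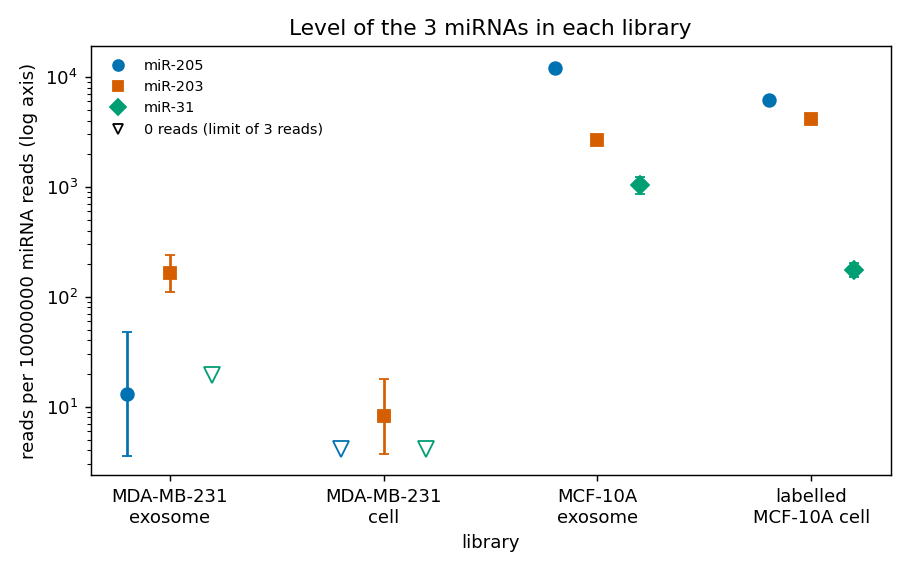
Level of miR-205, miR-203 and miR-31 in each library, in reads per 10000000 miRNA reads on a log axis; bars are Wilson 95% counting intervals and open triangles mark the 3-read limit where 0 reads were found. All 3 names lie above 100 in both MCF-10A libraries, while in MDA-MB-231 only miR-203 in exosomes does.

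**Figure D2:**
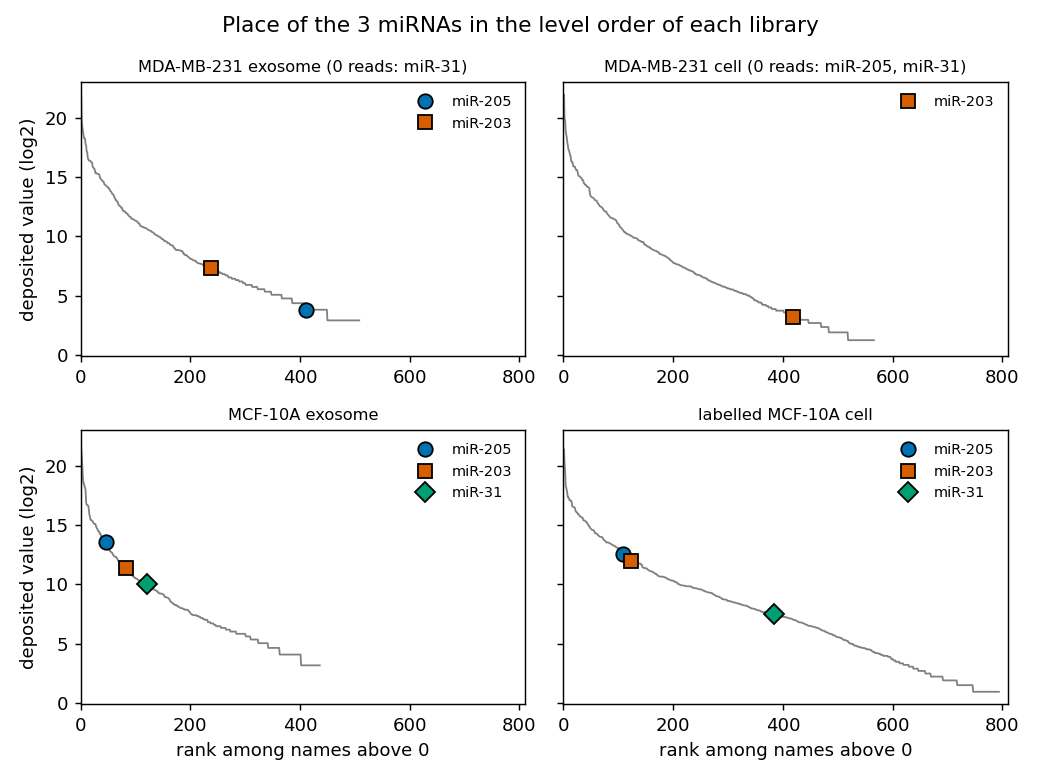
Deposited log2 value against rank for all names above 0 in each library (grey line), with the 3 miRNAs marked; names with 0 reads are given in the panel titles. The markers sit in the upper part of the MCF-10A exosome curve, at ranks 46, 82 and 121, while in MDA-MB-231 miR-203 is at rank 238 of 508 in exosomes and 418 of 566 in cells, and miR-205 at 411 of 508 in exosomes.

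The order of the 3 levels was the same in both MCF-10A libraries, miR-205 above miR-203 above miR-31, and the mature sequences are of nearly the same length (22, 22 and 21 bases). In MCF-10A exosomes miR-205 had 4.50 times the reads of miR-203 (3.99 to 5.07), and miR-203 had 2.61 times those of miR-31 (2.13 to 3.23). In the labelled MCF-10A cell library these ratios were 1.49 (1.44 to 1.55) and 23.5 (20.3 to 27.2), so the order was kept with different spacing. In MDA-MB-231 exosomes miR-203 had 12.5 times the reads of miR-205 (3.12 to 109), and 25 reads against 0 for miR-31. The 2 reads of miR-205 and 0 of miR-31 there were not apart beyond counting error. In MDA-MB-231 cells the 6 reads of miR-203 set it above miR-205 and miR-31, both at 0. Ratios between names within a library do not move with scaling, although ligation and PCR can favour one sequence over another.

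In the level order of MCF-10A exosomes miR-205 lay between miR-452 (13.61) and miR-106b (13.49), miR-203 between miR-342-3p (11.44) and the tied let-7i and miR-126 (11.36), and miR-31 between the tied miR-106a and miR-193b (10.07) and miR-148b* (9.97). In the labelled MCF-10A cell library miR-205 lay between the tied miR-181b and miR-30e* (12.67) and miR-320a (12.57), and miR-203 between miR-30a* (12.03) and miR-136 (11.99). There miR-31 shared its value with miR-675* and lay between the tied miR-1259 and miR-432 (7.49) and miR-223* (7.44). In MDA-MB-231 exosomes miR-203 shared its value with miR-1287 and miR-542-5p, just above miR-25* (7.3) and just below miR-15b*, miR-505 and miR-767-5p (7.41). At 2 reads for miR-205 in exosomes and 6 for miR-203 in MDA-MB-231 cells the order is one of ties among many names.

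The first comparison asked how exosomes of the metastatic line differ from those of the non-transformed line. All 3 miRNAs were lower in MDA-MB-231 exosomes. miR-205 differed by −9.75 on the log2 scale of the deposited values, a ratio of reads 926-fold lower (256 to 7650). miR-203 differed by −4.03, or 16.5-fold lower (11.0 to 25.8), and miR-31 by −10.01, at least 52.6-fold lower (0 against 129 reads). Names were counted as lower or higher at a log2 difference of 2 (4-fold) where 1 of the pair had at least 10 reads per 10000000. By that rule 3 of 3 were lower, where 19% of all 505 names tested were lower (96) and 148 were higher, with a median difference of 0.59. miR-31 had the lowest difference of the 505 names, which rests on the pseudocount because it had 0 reads, miR-205 the 3rd lowest and miR-203 the 54th lowest.

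The second comparison set the cell libraries side by side. All 3 were lower in MDA-MB-231 cells than in the labelled MCF-10A cell library. miR-205 had 0 against 6696 reads, at least 1499-fold lower, and miR-31 0 against 191, at least 42.9-fold lower. miR-203 had 6 against 4479 reads, 501-fold lower (230 to 1367). Lower values were common in this comparison, with 54.3% of 665 names lower (361) and 115 higher, a median of −2.83. The places of miR-205, miR-203 and miR-31 were only the 18th, 83rd and 131st lowest. Those of miR-205 and miR-31 rest on the pseudocount, because both had 0 reads in MDA-MB-231 cells. Under upper-quartile scaling 226 names were higher and 274 lower, and the median was −0.43. The share of 3 of 3 is therefore to be read against a background in which most names were lower, beside the 50.9% of that library's reads on the other-tissue lists.

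With MCF-10A exosomes in place of the labelled MCF-10A cell library, a pairing chosen after the data were seen and one that also differs in fraction, all 3 were still lower in MDA-MB-231 cells, miR-205 and miR-31 with higher bounds and miR-203 with a smaller fold. miR-205 had 0 against 1515 reads, at least 2956-fold lower and the lowest difference of 482 names. miR-31 had 0 against 129, at least 252-fold lower and the 3rd lowest, and miR-203 had 6 against 337, 329-fold lower (149.5 to 902) and the 8th lowest. The places of miR-205 and miR-31 again rest on the pseudocount, because of their 0 reads. In this pairing 3 of 3 were lower by the 4-fold rule, where 19.3% of the names were (93) and the median was 0.28. This comparison shares its MDA-MB-231 library with the one before and its MCF-10A library with the first.

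**Figure D3:**
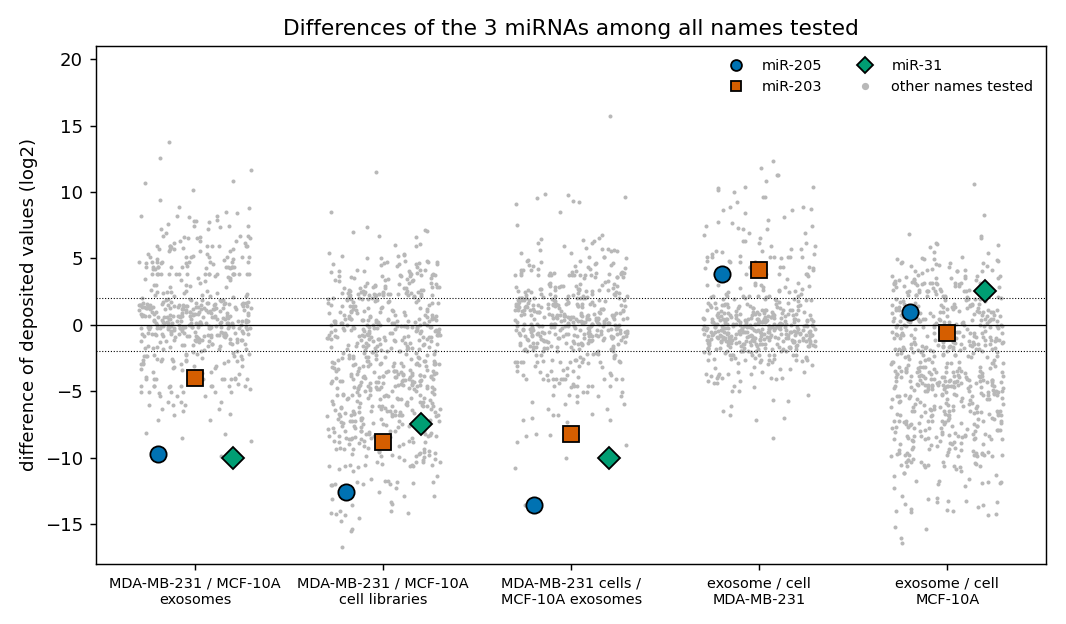
Difference of deposited log2 values for every name tested in each pairing (grey points, spread sideways at random), with miR-205, miR-203 and miR-31 marked; dotted lines are 4-fold. In the 3 columns that set MDA-MB-231 against MCF-10A all markers lie below −2, while the grey points centre near 0 in all but the pairs with the labelled MCF-10A cell library.

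The third comparison asked what exosomes carry relative to their parent cells. In MDA-MB-231, miR-203 had 25 reads in exosomes against 6 in the far deeper cell library, 20.0-fold higher (7.99 to 59.5; log2 difference 4.16). miR-205 had 2 against 0 reads, and the lower limit of its ratio was 0.900, so the exosome and cell libraries were not apart beyond counting error although the deposited values differed by 3.81. miR-31 had 0 reads in both and was not tested. Thus 2 of the 2 tested were past 4-fold higher, where 22.2% of 499 names were (111, with 67 lower), and the reads of only miR-203 set the fractions apart. The other-tissue lists moved with this difference, at 3.18% of the exosome reads against 0.436% of the cell reads, and their part in it was not tested.

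In MCF-10A the 3 miRNAs did not share a direction on the deposited scale, although all 3 were higher in exosomes under upper-quartile and TMM scaling. miR-31 was 5.89-fold higher in exosomes than in the labelled MCF-10A cell library (4.67 to 7.40; log2 difference 2.55), and it stayed higher under every scaling run, with log2 differences of 1.53 to 5.16. miR-205 was 1.97-fold higher (1.86 to 2.09; 0.98), but −0.044 over the reads outside the other-tissue lists. miR-203 was 1.52-fold lower (1.36 to 1.71; −0.61), but higher under upper-quartile scaling (2.02) and by 0.10 under TMM scaling (trimmed mean of M values). By the 4-fold rule 1 of 3 was higher, where 15.4% of 661 names were (102, with 378 lower and a median of −3.27). Under upper-quartile scaling 3 of 3 were past 4-fold higher, where 211 names were higher and 285 lower with a median of −0.68. Over the reads outside the other-tissue lists 0 of 3 were, beside a median of −4.29 over all names tested. The share of all names past 4-fold was not counted in that setting.

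Ratios to miR-200c, an epithelial miRNA of the miR-200 family, avoid the scaling of the libraries. miR-200c had the most reads of its family in every library but MDA-MB-231 cells, where miR-200b, miR-200a and miR-429 had more. For every 100 reads of miR-200c, miR-203 had 18.5 reads (11.6 to 28.5) in MDA-MB-231 exosomes, against 0.715 (0.640 to 0.795) in MCF-10A exosomes. It had 1.14 (0.416 to 2.49) in MDA-MB-231 cells, against 9.60 (9.31 to 9.90) in the labelled MCF-10A cell library. Relative to miR-200c, miR-203 was thus higher in exosomes of MDA-MB-231 than in those of MCF-10A, although its level was lower. miR-200c was not a stable reference between the lines. With 135 reads in MDA-MB-231 exosomes against 47159 in MCF-10A exosomes, it was 427-fold lower (361 to 509), a larger fold than the 16.5 of miR-203. The higher ratio of miR-203 therefore does not show a gain of miR-203. Between the cell libraries miR-200c was 59.4-fold lower (54.5 to 64.9) in MDA-MB-231. miR-205 had 1.48 reads per 100 of miR-200c in MDA-MB-231 exosomes (0.178 to 5.46), against 3.21 in MCF-10A exosomes (3.05 to 3.38), intervals that overlap. In MDA-MB-231 cells it had 0, which allows up to 0.569, against 14.4 in the labelled MCF-10A cell library. miR-31 had 0 per 100 in both MDA-MB-231 libraries, which allows up to 2.22 in exosomes and 0.569 in cells. It had 0.274 in MCF-10A exosomes (0.228 to 0.325) and 0.410 in the labelled MCF-10A cell library (0.353 to 0.472), so the depth of the MDA-MB-231 libraries could not show a difference relative to miR-200c.

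The files hold a star arm for miR-205 and for miR-31, and none was matched for miR-203. Neither star arm had a read in MDA-MB-231. miR-205* had 18 reads in MCF-10A exosomes and 4 in the labelled MCF-10A cell library, or 1.17% of the reads of its hairpin (0.744 to 1.85) against 0.0597% (0.0232 to 0.153). miR-31* had 14 and 92 reads, or 9.79% (5.92 to 15.8) against 32.5% (27.3 to 38.2). The arm ratios therefore differed in opposite directions. The ratio of miR-205 to its star arm was 84.2 in exosomes and 1674 in the labelled MCF-10A cell library, and that of miR-31 was 9.21 and 2.08. The ratio of these ratios, exosomes over cells, was 0.0503 for miR-205 (0.0124 to 0.153) and 4.44 for miR-31 (2.38 to 8.79). Over the 63 pairs of a name and its star arm with at least 50 reads in both libraries and both arms seen, the log2 of this ratio had a median of −0.88, with quartiles of −2.77 and 1.68. miR-205 (−4.31) was the 10th lowest and miR-31 (2.15) the 13th highest, so differences of this size were not rare.

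**Figure D4:**
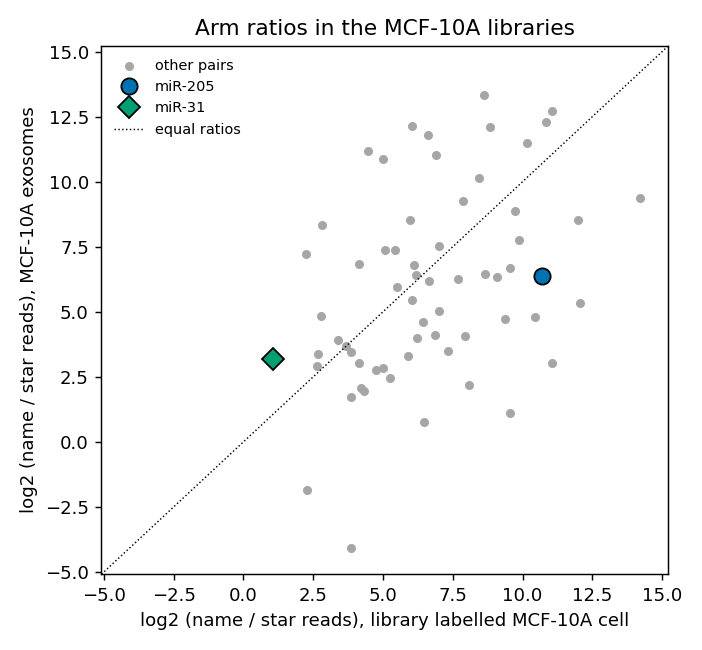
Log2 ratio of reads of a name to reads of its star arm in MCF-10A exosomes (vertical) and in the labelled MCF-10A cell library (horizontal), for 63 pairs; the dotted line marks equal ratios. miR-205 lies below the line and miR-31 above it, among widely scattered grey pairs.

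Other epithelial names gave the setting of these values. All 5 members of the miR-200 family were lower by 4-fold in MDA-MB-231 exosomes than in MCF-10A exosomes (median −3.34), and 4 of 5 in the cells (median −3.37), where 54.3% of all names were lower. With MCF-10A exosomes in place of the labelled MCF-10A cell library, 2 of 5 were lower and 3 within 4-fold (median −1.73). None of the 5 was at 0 in MDA-MB-231, where miR-200c, for example, had 135 reads in exosomes and 527 in cells, unlike miR-31 and, in cells, miR-205. In MCF-10A, miR-31 had only 129 exosome reads and 191 in the labelled cell library, against 47159 and 46637 of miR-200c. The 0 reads of miR-31 therefore do not show a larger loss than that of miR-200c. In MDA-MB-231 exosomes all 3 names of the miR-183-96-182 cluster were lower (median −3.14), but in the cells 2 were higher and 1 within 4-fold (median 3.53). This direction turned with MCF-10A exosomes in place of the labelled MCF-10A cell library, where 0 were higher, 2 lower and 1 within (median −2.52). Of 6 further names tied to basal or stratified epithelium or to basal-like tumours, 1 was higher, 2 lower and 3 within in exosomes (median 0.73), and 0, 3 and 3 in cells (median −1.92), beside 19% of all names lower in exosomes and 54.3% in cells. With MCF-10A exosomes in place of the labelled MCF-10A cell library the counts were 1 higher, 3 lower and 2 within (median −1.40). miR-944, encoded within an intron of the p63 gene TP63, was lower in both pairs, at few reads in MDA-MB-231. It stood at 4.76 (4 reads) in MDA-MB-231 against 7.01 (16 reads) in MCF-10A exosomes. That is 4.89-fold lower (1.58 to 20.1), an interval that reaches under 4-fold. In the cells it stood at 3.4 (7 reads) against 7.1 (149 reads). miR-135b was also lower in both pairs, at 6.53 against 9.11 in exosomes and 6.88 against 13.43 in cells. miR-221 and miR-222, often high in basal-like tumours, were within 4-fold in both pairs, with miR-221 at 15.55 in MDA-MB-231 against 14.27 in MCF-10A exosomes. miR-184 was within 4-fold in exosomes (6.72 against 5.04, or 16 against 4 reads) and lower in cells (1.24 against 7.82, or 1 against 246 reads). miR-455-5p was at 8.1 in MDA-MB-231 exosomes against 0 in MCF-10A exosomes, and at 9.29 against 8.22 in the cells. The medians over all names tested were 0.59 in exosomes and −2.83 in cells.

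**Figure D5:**
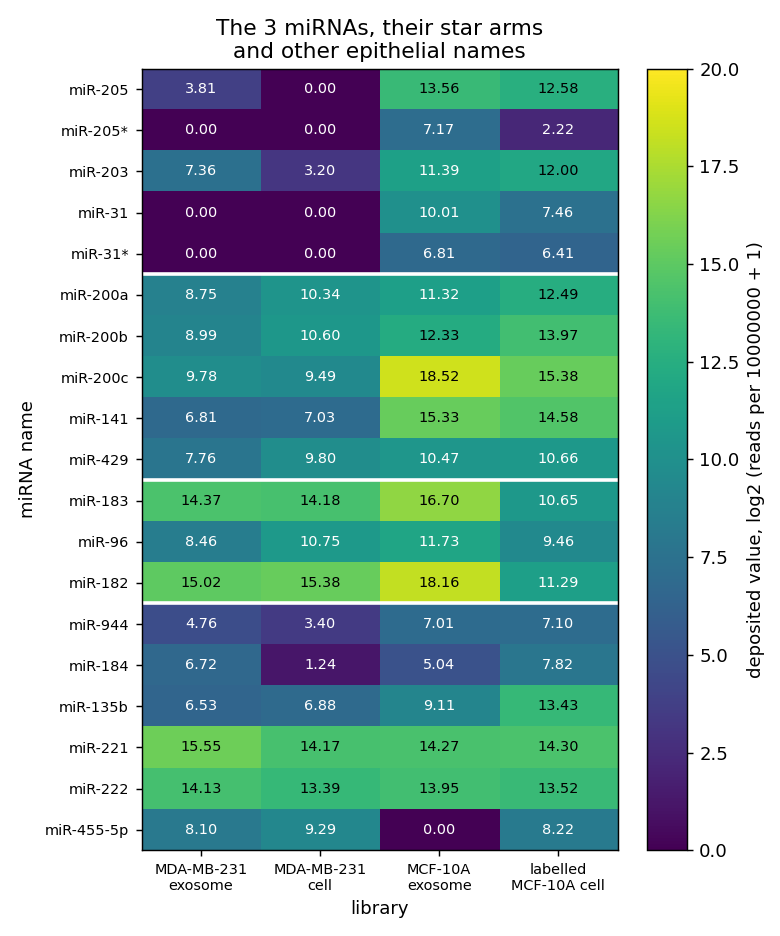
Deposited log2 values in each library for the 3 miRNAs and their star arms (top block), the miR-200 family, the miR-183-96-182 cluster and 6 other basal or stratified epithelium names (bottom block). In the MDA-MB-231 columns the top block is 0 except for miR-203 at 7.36 and 3.2 and miR-205 at 3.81 in exosomes, while miR-200 names stay between 6.81 and 10.6 there. miR-31 is also under miR-200c in MCF-10A, at 10.01 against 18.52 in exosomes and 7.46 against 15.38 in the labelled cell library.

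Likeness of pattern was measured as the root mean square difference between log2 values, each centred on the name's own mean over the 4 libraries, over the 566 names that reached 50 reads per 10000000 somewhere. miR-31 was nearest to miR-141 (0.73), miR-200c (0.75), miR-335* (0.80), miR-141* (1.13) and miR-187 (1.16). miR-205 was nearest to miR-31 (1.90), miR-196b (1.90), miR-141 (2.12), miR-335* (2.39) and miR-200c (2.42), so it had no close match on this scale. miR-203 was nearest to miR-335 (0.83), miR-196b (0.95), miR-375 (0.99), miR-323-3p (1.51) and miR-31* (1.52). Among the 3 the distances were 1.90 for miR-205 and miR-31, 2.18 for miR-203 and miR-31 and 2.44 for miR-205 and miR-203. The distances of miR-205 and miR-31 rest in part on the pseudocount, because both had 0 reads in MDA-MB-231 cells. They were not computed with another pseudocount. With 4 libraries, and several of these names at few reads in MDA-MB-231, the order is a description only.

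The miRNAs returned by a search for measured neighbours on either side of the 3 genes on their chromosomes were read in the same libraries. MIR491, at chr9:20716105-20716188 and 0.796 Mb from MIR31, gave 30 reads of miR-491-5p and 25 of miR-491-3p in MDA-MB-231 cells, where miR-31 had 0. In MDA-MB-231 exosomes these names had 4 and 3 reads, and miR-31 had 0. Both had 0 reads in MCF-10A exosomes, where miR-31 had 129. In the labelled MCF-10A cell library they had 330 and 26 reads, and miR-31 had 191. On the other side of MIR31, at 7.35 Mb, miR-876-5p had 0 exosome and 3 cell reads in MDA-MB-231, and 3 exosome reads and 12 in the labelled cell library in MCF-10A. miR-876-3p, of the same hairpin, had 23 reads in that library and 0 elsewhere. miR-29c, 1.63 Mb before MIR205, stood at 9.92 in exosomes and 9 in cells of MDA-MB-231, against 8.43 in exosomes and 14.74 in the labelled cell library of MCF-10A. Its star arm, miR-29c*, stood at 7.11 and 7.22 in MDA-MB-231, against 6.71 and 10.87 in MCF-10A. miR-215, 10.7 Mb after MIR205, stood at 9.57 and 6.55 in MDA-MB-231, against 7.91 and 15.39 in MCF-10A, exosomes given first in each pair. The name returned before MIR203A, miR-1247 at 2.56 Mb, had 412 reads in the labelled MCF-10A cell library and 0 elsewhere, and none was returned after MIR203A. Names encoded at several places were left out of this search, and other names with few reads may lie nearer than those given.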

How the data were processed

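Small RNAs of 17 to 52 nt were sequenced from exosomes and cells of each line, 1 library per group, per the labels' protocols. The submitters' processing notes name Novoalign, edgeR and the genome build hg18, but neither versions nor steps. The miRBase release, and how reads were given to names, is not stated there. The deposited log2 values were read as log2 of reads per 10000000 plus 1, since their linear values sum to about that number in each library and low values are whole multiples of 1 step. For 40.1% to 65.7% of the names above 0 the rounding resolves single reads, and 100% of these came out whole, within 0.005 log2; larger reads are known to 0.347%. The recovery was also run on simulated data. These were made with the same scale, pseudocount and rounding, so they cannot show whether the deposited values have this form. Differences are of the deposited log2 values; ratios of reads have exact conditional binomial intervals, and shares have Wilson intervals at 95% (Python 3.11.15, scipy 1.17.1). No test across replicates was possible with 1 library per group. Named miRNAs are the 3 members, their star arms, every name of 3 epithelial lists, the 5 nearest in pattern, the neighbours in level order where few names tie, and the measured neighbours on the chromosome, of 997 names matched to a gene; the miRNAs, lists and comparisons were chosen with earlier results of these data known, and the names of the 14q32 and 19q13 lists were filled in after the files were seen. Alternatives were a pseudocount of 10, upper-quartile and TMM scaling, levels outside the other-tissue lists, other minimum levels and recovered reads.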

Additional observations from a re-analysis of the deposited data

Results flagged for a closer look

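miR-203 differed between exosomes and cells in opposite directions in the lines. Its deposited log2 value was 4.16 higher in exosomes than in cells of MDA-MB-231, and in MCF-10A exosomes it was 0.61 under the labelled MCF-10A cell library (a difference of −0.61), a gap of 4.77 between the lines. Over all names tested the median exosome minus cell difference was −0.09 in MDA-MB-231 and −3.27 in MCF-10A. Among them the 4.16 of miR-203 was the 69th highest of 499, and its −0.61 the 212th highest of 661. The gap was not tested, since each value rests on 1 library a side. The MCF-10A difference turned to higher under upper-quartile scaling (2.02) and TMM scaling (0.10). The reads behind it were 25 and 6 in MDA-MB-231 exosomes and cells, and 337 in MCF-10A exosomes and 4479 in the labelled MCF-10A cell library.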

How the results depend on the processing

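All 33 alternative values of the MDA-MB-231 against MCF-10A differences of the 3 miRNAs, in exosomes and in cells, stayed at least 4-fold lower. In the cells a pseudocount of 10 gave −9.26 for miR-205, −7.82 for miR-203 and −4.21 for miR-31, and upper-quartile scaling gave −6.42 for miR-203. For MCF-10A exosomes against the labelled MCF-10A cell library, the log2 differences of miR-205, miR-203 and miR-31 were 3.61, 2.02 and 5.16 under upper-quartile scaling, 1.69, 0.10 and 3.26 under TMM scaling, and −0.044, −1.63 and 1.53 over reads outside the other-tissue lists. Under upper-quartile and TMM scaling these moves follow from the scaling factors of both MCF-10A libraries. Over reads outside the other-tissue lists the factor was 0.998 for MCF-10A exosomes and 0.491 for the labelled MCF-10A cell library, so those moves follow almost wholly from the latter. The difference of miR-205 between MDA-MB-231 exosomes and cells fell under 4-fold with a pseudocount of 10 (1.2). Of 57 alternative values of the 3 miRNAs, 44 stayed within the counting interval of the value reported. That interval is open at 1 end where a library had 0 reads, as for miR-205 in MDA-MB-231 cells. Counting only names with 10 recovered reads and an interval away from a ratio of 1 gave 54 names lower between exosomes in place of 96, and 70 in place of 111 for MDA-MB-231 exosomes over cells. In MCF-10A exosomes 211 names were higher than in the labelled MCF-10A cell library under upper-quartile scaling in place of 102. In the cell comparison 93 names were lower in place of 361 with MCF-10A exosomes as the other library, a choice made after the data were seen. The 5 names nearest in pattern to each miRNA were the same with a minimum of 10 reads per 10000000. No paired analysis was possible because each group held 1 library, and no library could be left out for the same reason. A count of 0 allows 19.6 reads per 10000000 in exosomes and 4.08 in cells of MDA-MB-231, which limits how low miR-31 and miR-205 can be said to be.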
